A study of Mus musculus with 16 samples.

Results

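The comparison of lights off with lights on in old lungs rests on 8 of the 16 arrays of the series, 4 taken at lights off and 4 at lights on, chosen by their labels for age and time. Male mice of the inbred strain C57BL/6J, with no genetic alteration named in the labels, gave whole lungs that were profiled on Affymetrix whole-transcript arrays. The mice lived under 12 h of light and 12 h of dark, and zeitgeber time 0 (ZT0) marks lights on, with lights off at ZT12. The mice of this comparison were 18 months old, and the other 8 arrays hold lungs of mice of 2 months at the same times, with 4 arrays each. In all 4 groups the lungs were rinsed with cold saline through the right ventricle and RNA was taken from a piece of frozen tissue. Samples carry numbers from 1 to 4 within each group, with no word on whether they are different animals, and the p-values therefore measure the spread between numbered samples, which may be technical. The question was which transcripts of the old lung differ between the start of the resting phase and the start of the active phase of these nocturnal animals.

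Nearly every cell carries a clock, a loop in which the activators BMAL1 and CLOCK switch on their own repressors, and hormones, feeding and body temperature set its phase in peripheral organs such as the lung. The endoplasmic reticulum (ER) folds secreted and membrane proteins with chaperones such as BiP, and the unfolded protein response raises these chaperones when the folding load grows, through the factors ATF6, XBP1 and ATF4. In the lung this machinery serves cells with a large secretory output, among them surfactant-producing alveolar type 2 cells, plasma cells and fibroblasts that make collagen and elastin.

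ER chaperones were lower at lights off in old lungs. Of 24 tested genes of the ER chaperone and unfolded protein response list 16 fell and 0 rose, where "fell" and "rose" stand for an adjusted p under 0.05 by limma with Benjamini-Hochberg adjustment over all 15626 genes tested. By the same rule 2.37% of all genes fell and 3.5% rose. This list, like the others used here, was chosen with earlier results of these data known. Hspa5, which encodes BiP, was 1.78-fold lower at ZT12. Outside the clock and heat shock genes, those that fell or rose by this rule and whose old groups did not overlap were ranked by size. Among them the matrix protein gene Spon2, the vasodilator gene Adm and the little-studied gene Fam124b had the largest falls. The transcription factor gene Zbtb16, the kinase gene Wee1 and the folate enzyme gene Mthfd1l had the largest rises. Fewer cells of a type and less RNA per cell cannot be told apart in whole tissue.

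The promoters of the ER genes are described first, because a known response element for ER stress is a long motif that few promoters hold. Promoter windows of 300 bases, 250 before to 50 after each listed start, were available from RefSeq (GRCm38.p6) for 12096 of the 15626 genes, and 8 motifs, chosen after the changes had been seen, were searched on both strands. The ER stress element, CCAAT and CCACG on one strand with any 9 bases between them, is the site through which ATF6 is known to act together with the CCAAT-binding factor NF-Y. Windows of 3 ER genes that fell are printed 5′ to 3′ on the strand of the gene, with the match in capitals, and that of the tetraspanin gene Tspan4, a large rise described further on, is shown with its E-box, CACGTG, in capitals. The Calr window also holds an E-box, left in lower case. The regions are chr2:34771840-34772139 (plus strand) for Hspa5, chr8:84846882-84847181 (minus strand) for Calr, chr12:17266339-17266638 (plus strand) for Pdia6 and chr7:141476130-141476429 (plus strand) for Tspan4, where 1 of 2 listed starts holds the E-box. In Calr the element is read on the opposite strand, so the capitals are its reverse complement.
Hspa5: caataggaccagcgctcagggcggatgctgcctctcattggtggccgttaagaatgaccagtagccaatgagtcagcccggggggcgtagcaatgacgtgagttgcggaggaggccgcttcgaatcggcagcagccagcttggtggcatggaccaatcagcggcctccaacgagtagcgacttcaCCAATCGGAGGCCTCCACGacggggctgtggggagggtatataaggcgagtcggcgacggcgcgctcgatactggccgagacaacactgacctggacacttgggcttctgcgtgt
Calr: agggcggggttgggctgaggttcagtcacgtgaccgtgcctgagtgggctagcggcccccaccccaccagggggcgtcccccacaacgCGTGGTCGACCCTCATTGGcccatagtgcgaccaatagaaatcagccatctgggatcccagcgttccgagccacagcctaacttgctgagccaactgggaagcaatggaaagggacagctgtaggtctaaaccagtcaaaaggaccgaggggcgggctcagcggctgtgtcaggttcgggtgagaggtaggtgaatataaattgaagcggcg
Pdia6: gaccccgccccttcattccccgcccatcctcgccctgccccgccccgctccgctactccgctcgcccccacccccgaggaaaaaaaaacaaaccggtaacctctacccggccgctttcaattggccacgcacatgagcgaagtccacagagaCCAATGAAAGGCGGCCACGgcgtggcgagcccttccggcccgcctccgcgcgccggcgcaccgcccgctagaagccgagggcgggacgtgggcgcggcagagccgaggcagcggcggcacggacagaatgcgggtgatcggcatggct
Tspan4: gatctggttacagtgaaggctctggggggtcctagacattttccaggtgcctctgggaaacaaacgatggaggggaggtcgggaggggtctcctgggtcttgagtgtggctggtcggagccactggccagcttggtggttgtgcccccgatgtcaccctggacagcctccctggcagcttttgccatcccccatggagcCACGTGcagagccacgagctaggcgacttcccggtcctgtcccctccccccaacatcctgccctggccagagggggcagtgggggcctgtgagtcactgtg

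The ER stress element was found in 19 of 12096 promoters (0.157%). It was present in 10 of the 291 genes that fell and had a promoter (3.44%) and in 0 of the 443 that rose. Of the 22 ER genes with a promoter 9 (40.9%) held it: Hspa5, Creld2, Pdia6, Calr, Hsp90b1, Syvn1, Dnajc3, Canx and Derl3. The genes with the element that fell were the first 8 of these plus Ero1b, which oxidises protein thiols in the ER, and Zfp57, a zinc finger gene. Those 8 are members of the ER list, so the share among genes that fell largely restates that list's fall and is not separate support. Over all 19 genes the change was negative in 15 and positive in 4, with a median of -0.27 on the log2 scale and a range of -0.83 to 0.18. A match describes the letters of a window and is neither a binding site nor a cause, and genes without a match can hold other forms of the element.

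The other 7 motifs were searched in the same windows. The heat shock element, searched as GAA, TTC and GAA in a row with NN between them, was in 0.562% of all promoters, in 0.677% of those that rose and in 1.72% of those that fell, which were Hspe1 and Hspd1, neighbours that share 1 promoter region, Hsph1, Chordc1 and BC065397. The E-box, the site of the clock activators, was in 10.8% of all promoters, 14.7% of those that rose and 13.7% of those that fell. The D-box, TTATGTAA, bound by Dbp and Nfil3, was in 0.761%, 0.677% and 0.344% in the same order, and the core of the ROR element, AGGTCA, in 15.3%, 14.7% and 16.8%. The core of the glucocorticoid response element, ACANNNTGT, was in 5.56%, 4.51% and 4.47%. The cyclic AMP response element, TGACGTCA, was in 3.24%, 2.03% and 3.44%, and the unfolded protein response element, TGACGTGG, in 1.08%, 0.677% and 0.687%.

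BiP, the central ER chaperone that holds the stress sensors inactive, showed the fall in every array. Hspa5 had a log2 signal of 9.61, 9.99, 9.97 and 9.83 in old ZT0 replicates 1 to 4 and of 9.0, 9.03, 9.01 and 9.05 in old ZT12 replicates 1 to 4. The lights-off values lay within 0.05 of each other, all below the lowest lights-on value, and old ZT0 replicate 1 was the lowest of its group. The log2 change was -0.83 (SE 0.082, n = 4 arrays a group, limma adjusted p = 3.26e-05). Sdf2l1, a cochaperone of BiP, was at 8.29, 8.94, 8.60 and 8.72 at ZT0 and at 7.58, 7.75, 7.64 and 7.60 at ZT12. Its groups did not overlap, and its change was -1.0 (SE 0.14, limma adjusted p = 0.000631). Manf, a secreted factor that binds BiP, was at 7.24, 7.56, 7.46 and 7.40 and then at 6.84, 6.77, 6.66 and 6.83, again apart, with a change of -0.64 (SE 0.068).

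The fall reached several parts of the folding machinery. Among chaperones Hsp90b1, the ER form of HSP90, changed by -0.41 (SE 0.058), Hyou1, a large HSP70 relative, by -0.51 (SE 0.081), and the lectin chaperones Calr and Canx by -0.43 (SE 0.057) and -0.21 (SE 0.044). Creld2, an ER stress gene with disulfide-related functions, fell by 0.71 (SE 0.1), and the disulfide isomerase gene Pdia6 fell by 0.48 (SE 0.064). The J-domain partners of BiP also fell: Dnajb9 by 0.38 (SE 0.09), Dnajb11 by 0.36 (SE 0.059) and Dnajc3 by 0.32 (SE 0.072). Syvn1, the ubiquitin ligase that disposes of misfolded ER proteins, fell by 0.34 (SE 0.058).

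Of the transcription factors of the response on the list, 3 fell. Ddit3, which encodes CHOP, changed by -0.58 (SE 0.09, limma adjusted p = 0.0017), Xbp1 by -0.32 (SE 0.062) and Atf4 by -0.22 (SE 0.05). Atf6, which was not on the list and was looked up afterwards, was not called, with a change of -0.01 (SE 0.051, adjusted p = 0.947). The other 8 members were not called: P4hb and Herpud1 had changes of 0.03 (SE 0.044) and 0.05 (SE 0.079), and Edem1, Derl3, Pdia3, Selenos, Sel1l and Trib3 lay between -0.35 and -0.09. The list's median change was -0.34, against 0.01 over all genes tested, and 22 of its 24 members were negative.

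**Figure D1:**
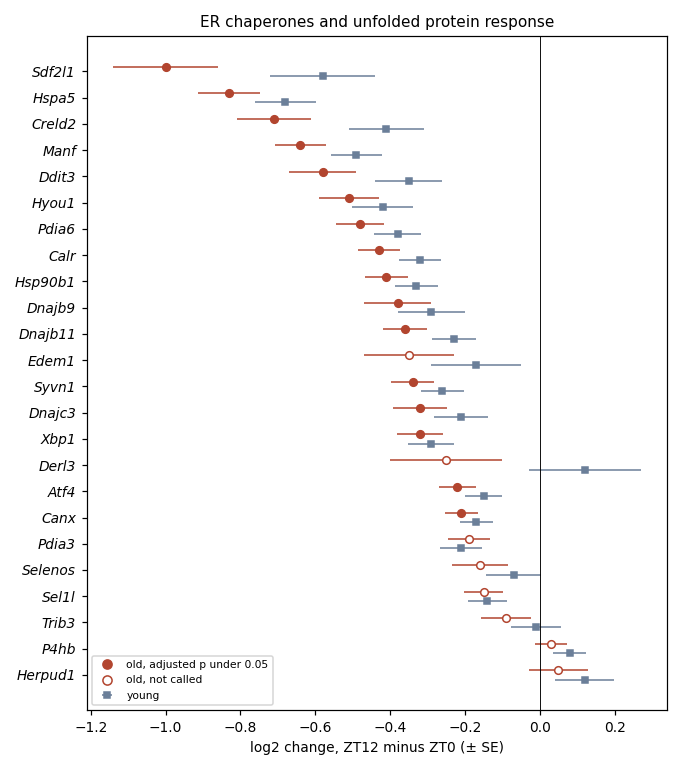
Log2 change from ZT0 to ZT12 (horizontal axis, with the standard error of the fit) of the 24 tested ER chaperone and unfolded protein response genes, red circles for old lungs, filled where the adjusted p was under 0.05, and grey-blue squares for young lungs. In old lungs 16 genes are filled, all on the negative side, from Sdf2l1 at -1.0 to Canx at -0.21.

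Young lungs showed the same list lower at lights off. There 12 of the 24 genes fell and 0 rose, against a background of 1.79% falls, with a median of -0.25, and Hspa5 changed by -0.68 (SE 0.082). The change was more negative in old than in young lungs for 23 of the 24 genes, by a median of 0.09. Limma's test of that difference called 0 of the 24, and 0 had an unadjusted p under 0.05, so a difference between the ages was not detected. The tests at each age used different arrays and 1 common estimate of the spread.

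The count of ER genes that fell depended on the fit. Leaving out 1 old array gave between 13, without old ZT0 replicate 3, and 18, without old ZT0 replicate 1, and the 8 old arrays alone gave 14. With the cardiac marker level of each array as a covariate, described below, it was 12, and with that covariate and the replicate number as a block it was 4. With the covariate alone Hspa5 changed by -0.79 (SE 0.094, limma adjusted p = 0.000344).

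In other folding systems fewer genes or none were called, apart from the heat shock list. As above, 2.37% of all genes fell and 3.5% rose. Of 13 tested genes of the cytosolic chaperonin and prefoldin list 5 fell and 0 rose, all of them subunits of the chaperonin that folds actin and tubulin: Cct3 (-0.40, SE 0.07), Cct4 and Cct6a (both -0.32, SE 0.064 and 0.063), Cct7 (-0.27, SE 0.072) and Cct8 (-0.21, SE 0.047). With the cardiac covariate 2 of them were called, and without old ZT0 replicate 3, where Cct8 was lost, the count was 3. The call of Cct7 held in 2 of the 8 fits without 1 old array. The 4 tested prefoldin genes named Pfdn had changes between -0.06 and 0.10. Of 29 proteasome subunits 0 were called, with a range of -0.13 to 0.14 and a median of 0.02. The heat shock list, which includes the cytosolic partners Hspa8, Hsph1 and Cacybp, fell in all 16 tested members with a median of -0.94, and its arrays are given below.

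**Figure D2:**
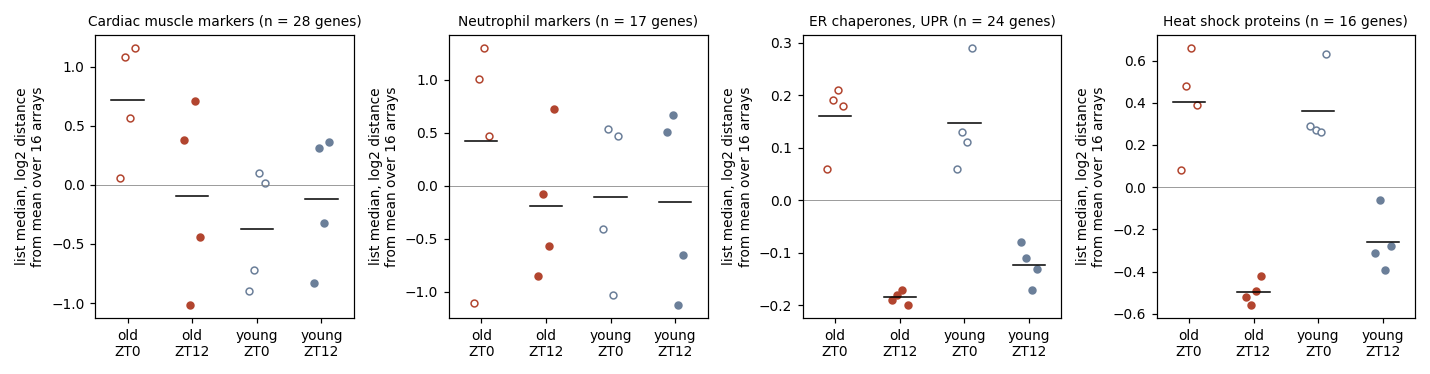
Median over the genes of each list of the log2 distance to the average of that gene in the 16 arrays (vertical axis), 1 point per array, open at ZT0 and filled at ZT12, with the group mean as a line. The old groups overlap for cardiac muscle and neutrophil markers, and are apart for the ER and heat shock lists, where the old ZT12 points lie within -0.20 to -0.17 and -0.56 to -0.42.

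The level of heart muscle markers differed between the arrays and was lower on average at lights off in old lungs. Heart muscle sleeves surround the large pulmonary veins of the mouse. The lung markers Sftpc, the surfactant protein C gene of type 2 cells, and Ager, of type 1 cells, were bright and even, from 13.19 to 13.31 and from 12.36 to 12.57 in the 8 arrays. The median of the 28 tested heart muscle markers was 0.06, 1.08, 0.57 and 1.16 in old ZT0 replicates 1 to 4 and 0.38, -1.02, 0.71 and -0.44 in old ZT12 replicates 1 to 4. The groups overlapped, with a mean of 0.72 (SD 0.51, n = 4) at ZT0 and of -0.09 (SD 0.78, n = 4) at ZT12, and old ZT12 replicates 2 and 4 had the lowest values of the 8.

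Bright single genes of heart muscle are given for each array. Nppa, the atrial natriuretic peptide gene, was at 8.92, 11.36, 10.72 and 11.48 at ZT0 and at 10.50, 6.67, 10.93 and 7.11 at ZT12. The low arrays were old ZT12 replicates 2 and 4, and the groups overlapped (change -1.82, SE 1.1, adjusted p = 0.377). Myh6, a myosin heavy chain gene of the mouse heart, was at 8.71, 10.17, 9.52 and 9.87 and then at 9.20, 5.61, 9.61 and 7.73, in the same array order at ZT12. Of the 28 markers 27 had a negative change, with a median of -0.79 and a range of -1.87 to 0.13, against a median of 0.01 over all genes. Only Nppb was called, at -0.70 (SE 0.17, limma adjusted p = 0.0247), with 5.42, 6.4, 6.12 and 6.59 at ZT0 and 5.46, 5.39, 5.47 and 5.41 at ZT12. Its lights-off values lay below log2 5.626, the mean signal under which genes were left out, old ZT0 replicate 1 lay among them, and its call held in 1 of the 8 fits that left out an old array. By count, 3 cardiac markers fell without old ZT0 replicate 1 and 3 without old ZT12 replicate 3.

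Some airway secretory genes were low in the same arrays. Bpifa1, a secreted antibacterial protein of the conducting airways, was at 11.07, 11.03, 10.51 and 11.54 at ZT0 and at 10.07, 4.92, 11.90 and 7.33 at ZT12. As for the cardiac genes, old ZT12 replicates 2 and 4 stood far below the others, and Bpifa1 was not called (change -2.48, SE 1.2, adjusted p = 0.238). Bpifb1 was at 9.79, 5.58, 11.41 and 7.59 in the 4 ZT12 arrays, Reg3g at 7.90, 4.62, 9.66 and 5.57, and Scgb3a1 at 10.23, 6.90, 11.05 and 9.0. Scgb1a1, the main club cell secretory protein, had no such low values, with 13.42, 13.42, 13.47 and 13.35 at ZT0 and 13.41, 13.28, 13.42 and 13.40 at ZT12. Its lowest value was in old ZT12 replicate 2, and whether so bright a signal follows the RNA level was not tested. Of 13 club and goblet cell markers 0 were called, and the genes named here were picked out after their values had been seen. The list's median was 0.17, 0.01, 0.14 and 0.16 in old ZT0 replicates 1 to 4. At ZT12 it was 0.25, -0.36, 0.24 and -0.04, with replicate 4 close to old ZT0 replicate 2.

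The cardiac marker level was then entered as a covariate in the fit. All 917 genes called in old lungs kept the sign of their change, and the median ratio of the change with the covariate to that without was 0.972. Of these genes 421 were still called, and 455 were called in all, 237 rises and 218 falls. The share of the cardiac level in any one result beyond these values was not tested.

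**Figure D3:**
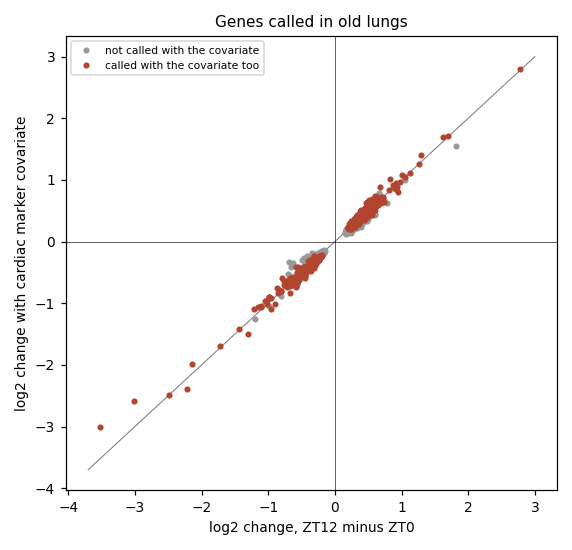
Log2 change from ZT0 to ZT12 of the 917 genes called in old lungs, without (horizontal axis) and with (vertical axis) the cardiac marker level of each array as a covariate, red where the gene was called in both fits; the line marks equal changes. The points lie along the line, and 421 of them are red.

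Neutrophil markers also tended lower at lights off. The median of 17 tested markers was -1.11, 1.01, 1.30 and 0.47 in old ZT0 replicates 1 to 4 and -0.85, -0.08, -0.57 and 0.72 in old ZT12 replicates 1 to 4. The groups overlapped widely, and old ZT0 replicate 1 was the lowest of all 8. The changes were negative for 16 of the 17 genes, with a median of -0.69, and only Hdc, the histamine-forming enzyme that mast cells and basophils also make, was called (-0.99, SE 0.27, limma adjusted p = 0.0409), a call that held in 2 of the 8 fits without 1 old array. Without old ZT0 replicate 1 the list had 2 falls. The granule genes S100a8 and S100a9 had changes of -0.33 (SE 0.63) and -0.39 (SE 0.58).

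Fat cell markers tended lower too, but their ZT12 arrays stood in the order of the cardiac markers and not of the neutrophil markers. The 10 tested fat cell genes had medians of 0.30, 0.27, 0.01 and 0.59 at ZT0 and of -0.15, -0.46, 0.61 and -0.45 at ZT12, which overlapped. Their median change was -0.37 and 0 genes were called, while 3 fell without old ZT12 replicate 3.

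Old ZT0 replicate 1 stood toward the lights-off arrays in several lists. It had the lowest value of its group for the cardiac, neutrophil, heat shock and ER medians, at 0.06, -1.11, 0.08 and 0.06, and for heat shock the other 3 arrays were at 0.48, 0.66 and 0.39. It still lay above all 4 ZT12 arrays in the ER list, which were at -0.19, -0.18, -0.17 and -0.20, and in the heat shock list, which were at -0.52, -0.56, -0.49 and -0.42. Without this array 1148 genes were called.

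Across all genes 917 of 15626 (5.87%) were called in old lungs, 547 higher and 370 lower at ZT12. The changes were mostly small, with a median of 0.32 among the rises and of -0.34 among the falls, and 10 rises and 16 falls reached 2-fold. In 488 of the rises and 335 of the falls the 4 arrays of one time lay entirely above those of the other, and groups did not overlap in 12.7% of all genes tested, 7.3% higher and 5.45% lower at ZT12. Among the 917 genes 874 had the same sign in young lungs, where 492 genes (3.15%) were called, 1.36% higher and 1.79% lower, and 289 were called at both ages. The count for old lungs depended on the arrays used. Leaving out old ZT0 replicate 2 gave 596 calls and old ZT0 replicate 3 gave 495, leaving out old ZT12 replicate 3 gave 592 and old ZT12 replicate 4 gave 579, and the 8 old arrays alone gave 470. The array medians of the series, 6.249 to 6.302 on the log2 scale, and the correlations of arrays within the old groups, 0.979 to 0.992, were close to each other.

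**Figure D4:**
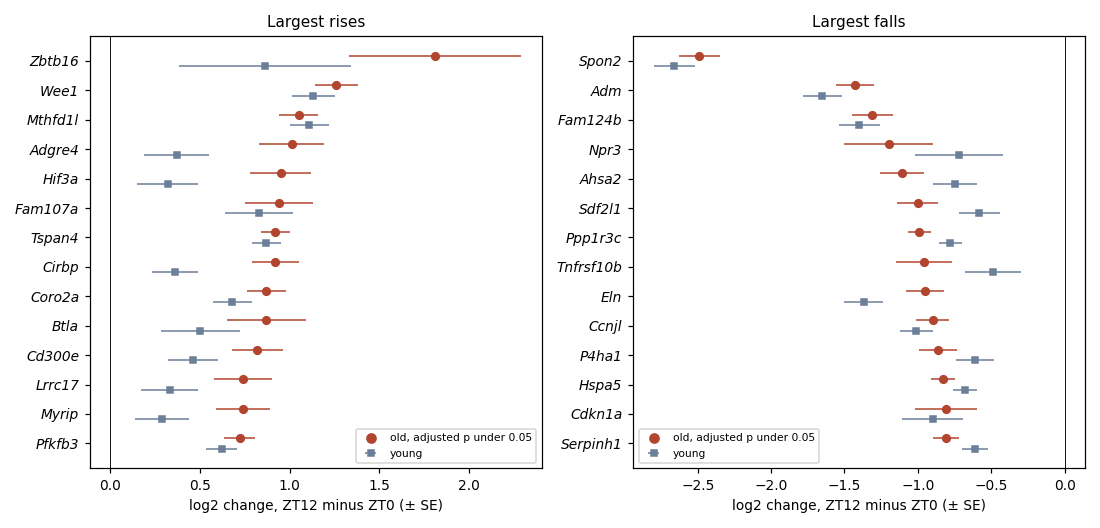
Log2 change from ZT0 to ZT12 (horizontal axis, with the standard error of the fit) of the 14 largest rises and the 14 largest falls in old lungs. They were taken among called genes outside the clock and heat shock lists whose old groups did not overlap. Red circles stand for old and grey-blue squares for young lungs. Spon2 at -2.49 stands apart on the falling side, and Zbtb16 at 1.81 has the widest error of the rises.

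The largest called fall outside the clock and heat shock genes was that of Spon2, a secreted matrix protein that can bind integrins and microbes. It was at 9.29, 9.12, 9.47 and 9.20 at ZT0 and at 6.64, 6.89, 6.75 and 6.84 at ZT12. All 4 lights-off arrays lay more than 2 log2 units below every lights-on array, which is a 5.61-fold difference of the means (change -2.49, SE 0.14, limma adjusted p = 5.62e-08). Adm, the gene of the vasodilator peptide adrenomedullin, was at 7.63, 7.01, 7.34 and 7.70 and then at 5.92, 5.99, 6.06 and 5.98. Its lights-off arrays were apart from the others, with a change of -1.43 (SE 0.13, limma adjusted p = 1.34e-05). They were tightly grouped at a low signal, below the array medians of the series (6.249 to 6.302), where a fall can be understated. Fam124b was at 8.04, 7.76, 7.55 and 7.62 and then at 6.17, 6.84, 6.11 and 6.62, apart as well (change -1.31, SE 0.14).

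Other large falls had metabolic, hormonal or growth roles. Ppp1r3c, which directs protein phosphatase 1 to glycogen, was at 8.13, 8.13, 8.22 and 8.16 at ZT0 and at 7.20, 7.04, 7.30 and 7.13 at ZT12. The groups were apart and each was narrow, and the change was -0.99 (SE 0.079, limma adjusted p = 2.82e-06). Npr3, the receptor that clears natriuretic peptides, fell by 1.20 (SE 0.3, limma adjusted p = 0.0259), Tnfrsf10b, a death receptor for TRAIL, by 0.96 (SE 0.19), and Ccnjl, a relative of the cyclins, by 0.90 (SE 0.11). Ahsa2, a relative of the HSP90 activator Ahsa1, fell by 1.11 (SE 0.15). Cdkn1a, which encodes the cell cycle inhibitor p21, fell by 0.81 (SE 0.21, limma adjusted p = 0.0341). The calls of Npr3 and Cdkn1a held in 3 and 2 of the 8 fits without 1 old array.

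Among the 14 rises the narrowest error relative to its size belonged to Tspan4, a tetraspanin of the cell membrane. It was at 7.54, 7.40, 7.25 and 7.36 at ZT0 and at 8.43, 8.13, 8.48 and 8.19 at ZT12. The groups were well apart, and the change was 0.92 (SE 0.082, limma adjusted p = 9.21e-06). Its promoter, printed above, holds 1 E-box, as do 14.7% of the promoters of genes that rose.

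Wee1, the kinase that holds cells before mitosis and a known clock output, was at 7.29, 7.21, 7.12 and 7.29 at ZT0 and at 8.55, 8.30, 8.70 and 8.38 at ZT12, a rise of 1.26 (SE 0.12). Mthfd1l, a mitochondrial enzyme that releases formate for one-carbon metabolism, was at 6.55, 6.37, 6.23 and 6.26 and then at 7.65, 7.10, 7.53 and 7.32. Both genes had groups that did not overlap, and Mthfd1l rose by 1.05 (SE 0.11). Pfkfb3, which makes the activator of glycolysis fructose 2,6-bisphosphate, rose by 0.72 (SE 0.086), and Cirbp, an RNA-binding protein induced by mild cold, was at 7.51, 6.91, 6.95 and 7.15 and then at 8.01, 7.96, 8.24 and 7.99.

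Zbtb16, which encodes the zinc finger factor PLZF, had the largest rise of this set and one of the least stable. It was at 8.22, 9.09, 8.29 and 9.14 at ZT0 and at 10.35, 10.58, 10.47 and 10.58 at ZT12. The groups were apart, with a wide spread at lights on (change 1.81, SE 0.48, limma adjusted p = 0.0356). The call held in 1 of the 8 fits without 1 old array, the one without old ZT0 replicate 4, and in 7 of 19 alternatives, over which the change lay between 1.55 and 1.97. Young lungs had a change of 0.86 (SE 0.48). Btla, an inhibitory receptor of lymphocytes, rose by 0.87 (SE 0.22) and likewise held its call in 1 of 8, the one without old ZT0 replicate 1.

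**Figure D5:**
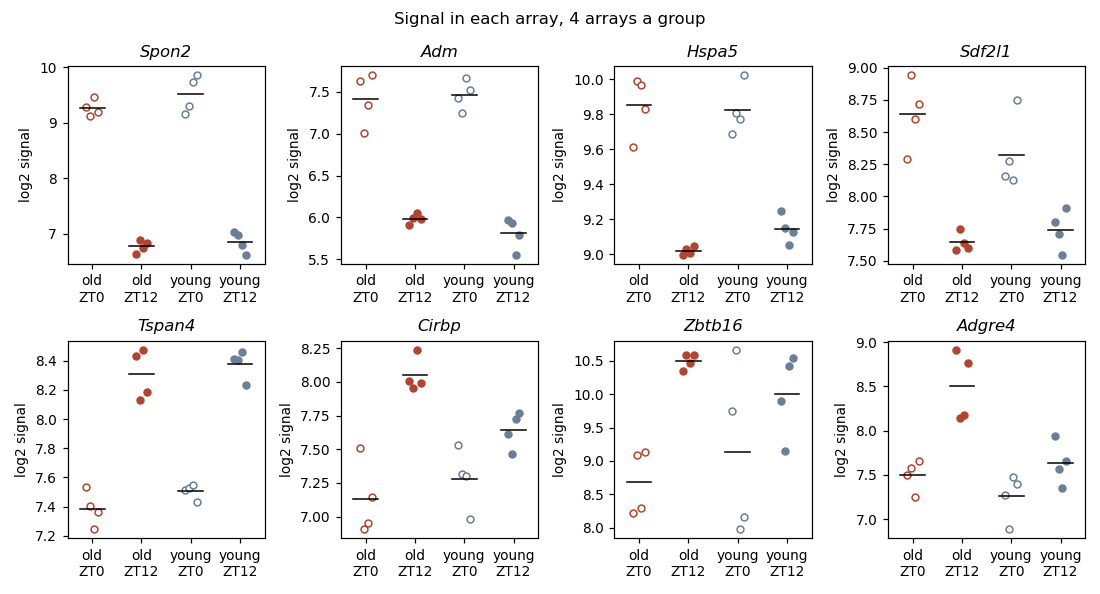
Log2 signal (vertical axis) of 8 genes in each of the 16 arrays, open at ZT0 and filled at ZT12, red for old and grey-blue for young lungs, with the group mean as a line. Spon2, Adm, Hspa5 and Sdf2l1 are lower, and Tspan4, Cirbp, Zbtb16 and Adgre4 higher, at ZT12 in old lungs, each with no overlap between the 2 old groups.

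Myeloid cell receptors were among the largest rises. Adgre4, an adhesion receptor of monocytes and macrophages, was at 7.50, 7.58, 7.25 and 7.66 at ZT0 and at 8.92, 8.15, 8.17 and 8.77 at ZT12. The groups did not overlap, and old ZT12 replicates 1 and 4 were the highest (change 1.01, SE 0.18, limma adjusted p = 0.00409). Cd300e, an activating receptor of non-classical monocytes, was at 7.16, 6.99, 6.84 and 7.29 and then at 8.17, 7.57, 7.69 and 8.13, in the same array order at ZT12, and rose by 0.82 (SE 0.14). Treml4, another receptor of such monocytes, rose by 0.40 (SE 0.093), a call that held in 4 of the 8 fits without 1 old array.

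Few other genes of the monocyte and macrophage list were called. Of its 16 tested genes 2 rose, Adgre4 and Treml4, and 0 fell, with a median of -0.01, while 3.5% of all genes rose. Cx3cr1 and Ace, known markers of the same monocytes, had changes of 0.29 (SE 0.098, adjusted p = 0.1) and 0.10 (SE 0.052), and Ccr2 and Ly6c2, markers of classical monocytes, had -0.29 (SE 0.22) and -0.25 (SE 0.19). In young lungs Adgre4 changed by 0.37 (SE 0.18) and Treml4 by 0.04 (SE 0.093), and limma's test of the difference between the ages called neither. With the cardiac covariate Adgre4 changed by 1.08 (SE 0.2, limma adjusted p = 0.0114).

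The remaining large rises had varied roles. Hif3a, a member of the hypoxia-inducible factor family that can restrain the others, was at 6.12, 6.27, 6.34 and 6.00 and then at 6.79, 7.39, 7.11 and 7.25, apart at a low signal (change 0.95, SE 0.17). Fam107a, an actin-associated protein induced by glucocorticoids, rose by 0.94 (SE 0.19), and its second probe set gave 0.56. Coro2a, an actin-binding coronin, rose by 0.87 (SE 0.11), but its second probe set gave 0.14. Myrip, which links secretory granules to myosin, rose by 0.74 (SE 0.15), as did Lrrc17, a secreted leucine-rich repeat protein (SE 0.16).

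Of the 28 genes of this set, 17 were called under every one of the 19 alternatives, and Adm under the 18 in which it was tested; it is too dim for the stricter filter. Among the falls these included Spon2, Sdf2l1, Eln and Hspa5, and among the rises Wee1, Tspan4, Adgre4 and Pfkfb3.

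Of 40 tested genes of the extracellular matrix and collagen processing list 7 fell and 1 rose, with a median of -0.08. The shares over all genes were 2.37% falls and 3.5% rises. Eln, the elastin gene, was at 9.61, 9.50, 9.36 and 9.80 at ZT0 and at 8.60, 8.77, 8.39 and 8.70 at ZT12. The groups were apart, and the change was -0.95 (SE 0.13, limma adjusted p = 0.000571). Serpinh1, the collagen chaperone HSP47 of the ER, was at 9.05, 9.21, 9.39 and 9.17 and then at 8.39, 8.42, 8.40 and 8.37, a narrow lights-off group well below the other, and fell by 0.81 (SE 0.088).

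The other called members included matrix-modifying enzymes. P4ha1, the catalytic subunit of prolyl 4-hydroxylase, fell by 0.86 (SE 0.13), Plod2, a lysyl hydroxylase, by 0.29 (SE 0.062), Loxl1, a crosslinking enzyme of elastin, by 0.44 (SE 0.1), and Mmp14, a membrane-bound collagenase, by 0.35 (SE 0.087). Timp3, an inhibitor of such proteases, rose by 0.23 (SE 0.052). The collagen genes Col1a1, Col1a2 and Col3a1 were not called, at -0.20 (SE 0.19), -0.07 (SE 0.13) and -0.39 (SE 0.2). With the cardiac covariate 7 matrix genes fell and 0 rose. Without old ZT0 replicate 1 10 fell, and the lowest count of falls without 1 old array was 5.

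Genes that respond to glucocorticoids, hormones that peak before the active phase in rodents, rose in more cases than they fell. Of 27 tested genes 6 rose and 1 fell, with a median of 0.10, against 3.5% rises and 2.37% falls over all genes. Glul, glutamine synthetase, was at 10.61, 10.73, 10.66 and 10.75 at ZT0 and at 11.02, 11.09, 11.28 and 11.10 at ZT12, with the groups apart (change 0.44, SE 0.078, limma adjusted p = 0.00449). Sult1a1, a sulfotransferase, rose by 0.45 (SE 0.086), Klf9, a transcription factor, by 0.50 (SE 0.12), and the clock gene Per1 by 1.05 (SE 0.25), beside Zbtb16 and Hif3a above, while Cdkn1a was the member that fell.

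Other classical targets of the hormone were not called. Fkbp5, the regulator of the receptor itself, had a change of 0.68 (SE 0.23, adjusted p = 0.0922), Tsc22d3, which encodes GILZ, 0.47 (SE 0.18, adjusted p = 0.151), and Dusp1, Sgk1 and Nfkbia lay between -0.21 and 0.08. The count of rises was 3 with the cardiac covariate, 3 without old ZT12 replicate 3 and 4 without old ZT0 replicate 3, and that of falls was 0 in all of these. The call of Klf9 was lost without old ZT0 replicate 3 and without old ZT12 replicates 2 and 3, and that of Per1 without old ZT0 replicate 4 and without old ZT12 replicate 3. Immediate early genes, which rise within minutes of handling or other stimuli, had 0 of 25 members called, with a median of -0.07, but 4 fell without old ZT0 replicate 1. The nearest was Nr4a3, an orphan nuclear receptor, at -1.04 (SE 0.32, adjusted p = 0.071), with 6.3, 7.48, 7.86 and 7.27 at ZT0 and 5.88, 6.25, 6.31 and 6.29 at ZT12.

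Of 34 tested detoxification and antioxidant genes 6 rose, 1 fell and 27 were not called, with a median of 0.11. Over all genes 3.5% rose and 2.37% fell. Ephx1, an epoxide hydrolase, was at 10.41, 10.22, 10.40 and 10.29 and then at 10.66, 10.58, 10.81 and 10.59, a small change with the groups apart (0.33, SE 0.065, limma adjusted p = 0.00786). Nqo1, a quinone reductase, rose by 0.56 (SE 0.15), Ces1d, a carboxylesterase, by 0.40 (SE 0.11), Fmo2, the flavin monooxygenase of the lung, by 0.21 (SE 0.044), and Gpx1, a glutathione peroxidase, by 0.20 (SE 0.053).

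The subunits of the enzyme that makes the glutathione precursor went opposite ways. Gclm, the modifier subunit, was at 9.23, 9.49, 9.28 and 9.44 and then at 9.57, 9.74, 9.65 and 9.66, while Gclc, the catalytic subunit, was at 10.31, 10.32, 10.55 and 10.44 and then at 10.11, 10.10, 10.26 and 10.01. Neither gene's groups overlapped, with changes of 0.29 (SE 0.071) and -0.28 (SE 0.07), and each call held in 3 of the 8 fits without 1 old array. The list counted 4 rises and 0 falls with the cardiac covariate, and 2 rises and 0 falls with the 8 old arrays alone. Without old ZT0 replicates 2, 3 and 4 it counted 3, 3 and 4 rises and 1, 0 and 0 falls, and without old ZT12 replicates 3 and 4 it counted 2 rises each and 1 and 0 falls. The calls of Gpx1 and Ces1d held in 2 of the 8 fits each.

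Metabolic and growth lists had few called members, to be read beside the 3.5% of all genes that rose and the 2.37% that fell. The hypoxia list had 2 rises, Pfkfb3 and the pyruvate dehydrogenase kinase Pdk1 (0.31, SE 0.073, although a dim second probe set gave -0.08), and 2 falls, Adm and P4ha1, of 19. The sterol and fatty acid synthesis list had Lss, lanosterol synthase, up (0.36, SE 0.084) and Acaca, acetyl-CoA carboxylase, down (-0.29, SE 0.07), of 23. Acadm, the medium-chain acyl-CoA dehydrogenase, was the only called gene of 25 in fatty acid oxidation (-0.32, SE 0.064), and 2 others rose without old ZT0 replicate 4. Of 31 respiratory chain genes 0 were called, with a median of -0.03. Among insulin and growth factor genes Foxo1 rose by 0.35 (SE 0.075), with 0.12 from its second probe set, and Igfbp3, which carries insulin-like growth factors, fell by 0.62 (SE 0.14), of 27. In the cell cycle list Wee1 and the replication helicase genes Mcm2 (0.28, SE 0.061) and Mcm6 (0.27, SE 0.068) rose, of 35, and Atg4a, a protease of autophagy, rose by 0.27 (SE 0.054) as 1 of 25. Calls were lost for Pdk1 without old ZT0 replicate 3 and old ZT12 replicate 1, for Lss without replicate 2 of either time, for Acaca without old ZT0 replicate 1 and old ZT12 replicates 1 and 4, and for Igfbp3 without old ZT0 replicates 2 and 3 and old ZT12 replicate 4. That of Mcm6 held in 3 of the 8 fits.

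A few RNA splicing factors were called, in both directions, while 3.5% of all genes rose and 2.37% fell. Of 30 tested genes 3 rose, Hnrnpd (0.24, SE 0.048), Srsf5 (0.33, SE 0.069) and Hnrnpdl (0.24, SE 0.06), and 2 fell. Tra2a, which promotes exon inclusion, was at 9.48, 9.52, 9.68 and 9.56 and then at 8.97, 9.14, 9.19 and 9.22, apart, and fell by 0.43 (SE 0.077), and Hnrnpc, which binds nascent transcripts, fell by 0.26 (SE 0.054). The list's median was 0.02, and with the cardiac covariate 1 rose and 2 fell. The call of Hnrnpdl held in 2 of the 8 fits without 1 old array.

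Immune mediators showed a few falls close to the threshold, while 2.37% of all genes fell and 3.5% rose. Of 35 chemokines, cytokines and adhesion molecules 3 fell and 0 rose: Csf1, the macrophage growth factor (-0.32, SE 0.086), Sele, the endothelial selectin (-0.45, SE 0.12), and Il33, an alarm cytokine of alveolar type 2 cells (-0.46, SE 0.13, limma adjusted p = 0.0491). Their calls held in 1, 2 and 1 of the 8 fits without 1 old array. Cxcl9, an interferon-induced chemokine, was the 1 gene of 26 called in the interferon list (-0.66, SE 0.18), with overlapping groups and a call held in 2 of 8. Of 15 complement genes 0 were called, although 1 rose without old ZT0 replicate 2 and 1 fell without old ZT0 replicate 1. Ccr7, the homing receptor shared by the T cell and dendritic cell lists, rose by 0.45 (SE 0.1), a call held in 4 of 8.

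Markers of the lung's own cell types mostly did not pass the test, which 3.5% of all genes passed as rises and 2.37% as falls. Of 16 alveolar type 1 markers 3 rose: Gprc5a, a retinoid-induced receptor, Pdpn, which encodes podoplanin, and Lmo7, a junction protein (0.23, SE 0.059). Gprc5a was at 11.56, 11.38, 11.50 and 11.29 at ZT0 and at 11.84, 12.01, 11.90 and 11.94 at ZT12, with the groups apart (change 0.49, SE 0.066, limma adjusted p = 0.000564), and Pdpn rose by 0.27 (SE 0.051). The call of Lmo7 held in 2 of the 8 fits without 1 old array. Ager, Hopx and Aqp5, which define type 1 cells, had changes of 0.05, 0.03 and 0.09, and none was called.

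In the vessels and stroma few markers were called, some higher and some lower, while 3.5% of all genes rose and 2.37% fell. Of 22 endothelial markers Hey1, a Notch target of arteries, rose by 0.37 (SE 0.087), and Cldn5, the tight junction claudin, and Gja5, the arterial connexin 40, fell by 0.46 (SE 0.1) and 0.38 (SE 0.06). Gja5 was at 7.93, 7.85, 7.83 and 7.95 and then at 7.50, 7.54, 7.45 and 7.56, apart. Pecam1 and Cdh5, present in all endothelium, had changes of -0.01 (SE 0.051) and 0.00 (SE 0.048). Among fibroblast markers Ces1d rose and Col13a1 fell (-0.27, SE 0.071), of 19, and among mesothelial markers Krt19 rose (0.44, SE 0.095) and Upk1b fell (-0.54, SE 0.12), of 8. The calls of Hey1 and Col13a1 held in 4 and 2 of the 8 fits without 1 old array.

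The list of alveolar type 2 markers had 1 called member of 21, Il33, whose call held in 1 of the 8 fits without 1 old array. The B and plasma cell list had Xbp1, already given with the ER genes, of 14, and there 3 genes rose without old ZT0 replicate 1. Over all genes 3.5% rose and 2.37% fell. Ciliated cells (18 genes), smooth muscle and pericytes (18) and alveolar macrophages (12) had 0 called members each. In all, 11 of 41 lists had no called member. The red cell and platelet list had 5 tested genes with changes from 0.69 to 0.83 and 0 called.

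Clock genes give the scale of the comparison. Dbp, a direct clock output, was at 7.84, 7.78, 7.81 and 7.87 at ZT0 and at 10.69, 10.38, 10.84 and 10.50 at ZT12, and Arntl, which encodes BMAL1, was at 9.60, 9.40, 9.38 and 9.58 and then at 6.82, 7.79, 6.97 and 7.53. Both had groups far apart, and at ZT12 replicates 2 and 4 had the lower Dbp and the higher Arntl values. Of the evening list 11 of 12 rose, and of the morning list 4 of 5 fell, against 3.5% rises and 2.37% falls over all genes.

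The same replicates, old ZT12 2 and 4, were those with low signals of cardiac markers and of the airway secretory genes picked out above. Their part in the clock values was not tested beyond the covariate, with which 10 evening genes rose and 4 morning genes fell.

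The change with time was compared directly between the ages by limma's interaction. Of 15626 genes 0 were called, and 770 (4.93%) had an unadjusted p under 0.05. The called genes of old lungs with the smallest interaction p were Nr1d1, Nr1d2, Npas2, Cfap221, Klrc1 and Hnrnpa0. Nr1d1, a repressor of Arntl, rose by 0.90 (SE 0.15) in old lungs, against 2.24 (SE 0.15) in young lungs. Cfap221, a protein of motile cilia, was at 6.71, 6.68, 6.73 and 6.80 at ZT0 and at 6.60, 6.47, 6.52 and 6.54 at ZT12, a change of -0.20 (SE 0.046) against 0.11 in young lungs (difference -0.31, SE 0.065, adjusted p = 0.533). The call of Cfap221 in old lungs was lost without old ZT0 replicate 4 and without old ZT12 replicate 2. Klrc1, the natural killer cell receptor NKG2A, was at 5.98, 5.82, 5.46 and 5.66 and then at 6.16, 6.47, 6.37 and 6.37, a change of 0.61 (SE 0.11) against -0.07 (difference 0.68, SE 0.15, adjusted p = 0.734). Both had groups apart in old lungs, and neither difference between the ages passed the test. Hnrnpa0, an RNA-binding protein, changed by 0.27 (SE 0.053) against -0.06, with a difference of 0.33 (SE 0.076, adjusted p = 0.734).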

How the data were processed

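Per the labels' protocols, lungs were perfused and frozen, RNA was taken with TRIzol, and labelled DNA was hybridised to Affymetrix arrays. The authors deposited log2 signals, a scale read from the values themselves; their normalization is not given in the sources used here, and no further one was applied. A normalization that makes arrays alike removes a shift common to most genes. No detection calls or array scan dates were used.

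The table has 41345 probe sets, of which the platform annotation gives 1 symbol to 23521 and several to 1814, and does not list 16010. Tests used those with 1 symbol; 23328 of these matched RefSeq by Entrez ID without a symbol change. Where a gene had more than 1 such probe set (1082 genes), the brightest on average was taken. Of 22180 genes, those with a mean under the 30th percentile of the probe sets with 1 symbol (log2 5.626) were left out, and 15626 were tested, with limma 3.58.1 (R 4.3.3), 2-sided, a mean per group over all 16 arrays, eBayes and Benjamini-Hochberg adjustment. Genes were called at an adjusted p under 0.05. The number of arrays limits the precision.

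The 41 gene lists (869 genes, 770 tested) and the rule for named genes were chosen with earlier results of these data known. The rule named the 14 largest rises and 14 largest falls among called genes with groups apart (leaving out clock and heat shock members and predicted, receptor-repertoire or small RNA symbols), up to 5 called members with the smallest adjusted p per list described (3 for clock and heat shock), the 6 called genes with the smallest interaction p, and all tested cardiac markers; other names complete a list or were chosen after their values were seen. List values per array are medians of the distance from each gene's mean. Alternatives were other filters, quantile normalization or median centring, other eBayes settings, array weights, every probe set, a replicate block, a cardiac covariate, the 8 old arrays alone, and each old array left out. Plots used matplotlib 3.10.9 (Python 3.11.15).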

Additional observations from a re-analysis of the deposited data

Results flagged for a closer look

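In 264 groups of 4 arrays (the old ZT0 and old ZT12 arrays of the named genes and of the list medians), 10 had 1 array whose gap to the nearest other took up more of the group's range than Dixon's test for an outlying value allows; chance does this in about 1 of 20 groups. The gaps were small in log2 signal. Old ZT0 replicate 1 was high for Hnrnpa0 (8.91, others 8.73 to 8.74) and for Acaca (9.06, others 8.82 to 8.85). Old ZT0 replicate 2 was low for Fmo2 (12.42, others 12.50) and for Krt19 (8.13, others 8.44 to 8.49), and high for the chemokine, cytokine and adhesion molecule median (0.19, others 0.01). Old ZT12 replicate 2 was low for Hspa8 (11.57, others 11.64 to 11.65) and high for the extracellular matrix median (-0.05, others -0.18 to -0.16). Old ZT12 replicate 3 was high for Per1 (10.84, others 10.51 to 10.52) and for Il33 (9.31, others 9.17 to 9.18), and low for Pdpn (11.16, others 11.23 to 11.24).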

How the results depend on the processing

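All 917 called genes kept their direction in each of the 19 alternatives in which they were tested, and of the 119 named genes none that was called reversed. The genes were picked for their change in these same arrays, so a kept direction was largely fixed in advance. The count of calls was 1037 and 652 with a stricter filter and with none, and 981 and 912 with quantile normalization and median centring. It moved by more than 1.5 times with the cardiac covariate (455), with the 8 old arrays alone (470) and with both fits by replicate block given below. Leaving out 1 old array gave 495 to 1148. The count moved by more than 1.5 times without old ZT0 replicate 2 (596) or 3 (495), and without old ZT12 replicate 3 (592) or 4 (579). The labels do not say whether the replicate numbers pair the samples. Correlations of deviations between same-numbered arrays were 0.143, 0.112, -0.09 and -0.196, too few values to decide it. With the number as a block 599 genes were called, and with block and cardiac covariate 165, among them 4 of the 24 ER genes. Of the 92 named genes that were called, 62 were called in all 8 leave-outs, 8 were lost in 1 to 3 and 22 in 4 or more. The interaction had 0 calls by limma in the main setting and in every alternative run, none of which left out a young array. Signal over background was not assessed, and 4 arrays a group limit small changes.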
